A study of Mus musculus with 28 samples.

Results

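The 9 genes described here encode enzymes of the methionine cycle and of transsulfuration in mouse liver, namely Mat1a, Gnmt, Ahcy, Bhmt, Bhmt2, Cbs, Cth, Pemt and Mthfd1. They were chosen by name, with earlier results of these data known. Each symbol was found as 1 of the 49585 features of the count table. All 9 were among the 21583 genes that passed the filter on low counts. RNA-seq was run on whole livers of fasted C57BL/6JOlaHsd mice aged 5 to 7 months, of both sexes and of either genotype, WT or SIRT6-tg, which gave 4 groups of 7 libraries. SIRT6-tg mice overexpress the NAD+-dependent deacylase SIRT6, they all came from 1 transgenic line, and WT littermates served as their controls. The labels number the 7 replicates of a group without saying what a number stands for, and all mice were on standard chow. The comparisons ask how the transgene, in either sex, goes with the expression of these enzymes.

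Hepatocytes carry out most of the methionine metabolism of the body. MAT1A, the catalytic subunit of the liver methionine adenosyltransferases, joins methionine to ATP to make S-adenosylmethionine, the general methyl donor. GNMT uses that methyl group to make sarcosine from glycine, and PEMT uses it to make phosphatidylcholine from phosphatidylethanolamine. AHCY splits the remaining S-adenosylhomocysteine into adenosine and homocysteine. Homocysteine is either methylated back to methionine, by BHMT with betaine or BHMT2 with S-methylmethionine as the donor, or drawn into transsulfuration, in which CBS forms cystathionine and CTH releases cysteine from it. MTHFD1 is the cytosolic trifunctional enzyme that interconverts the folate one-carbon forms, which feed the other, folate-dependent route of homocysteine methylation.

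Bhmt and Bhmt2 lie close together on chromosome 13, both on the minus strand (GRCm38, chr13:93616675-93637961 and chr13:93655720-93674302), and they are shown first because they are paralogs, and their genotype differences are set side by side in both sexes. Gnmt (chr17:46725664-46729168, minus strand) and Ahcy (chr2:155059310-155074497, minus strand) are shown because they had the largest fold changes of the 9 genes in males. The other genes are Mat1a (chr14:41105035-41124412, plus strand), Cbs (chr17:31608894-31637238, minus), Cth (chr3:157894248-157925077, minus), Pemt (chr11:59970614-60046489, minus) and Mthfd1 (chr12:76255298-76319803, plus). The RefSeq promoters (GRCm38.p6) run from 250 bases before to 50 bases after the annotated start, and 7 of the 9 genes had an entry, with 8 promoters in all. Each is written 5′ to 3′ on the gene's own strand, at chr13:93637709-93638008, chr13:93674253-93674552, chr17:46729116-46729415 and chr2:155074448-155074747, and the capitals mark exact matches on either strand of CCAAT or GGGCGG.
Bhmt: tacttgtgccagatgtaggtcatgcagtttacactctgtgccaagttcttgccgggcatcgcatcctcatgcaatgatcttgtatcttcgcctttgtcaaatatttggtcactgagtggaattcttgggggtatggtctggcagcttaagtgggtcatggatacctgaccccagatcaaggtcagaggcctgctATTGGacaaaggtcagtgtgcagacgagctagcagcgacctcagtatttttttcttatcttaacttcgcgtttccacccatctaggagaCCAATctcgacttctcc
Bhmt2: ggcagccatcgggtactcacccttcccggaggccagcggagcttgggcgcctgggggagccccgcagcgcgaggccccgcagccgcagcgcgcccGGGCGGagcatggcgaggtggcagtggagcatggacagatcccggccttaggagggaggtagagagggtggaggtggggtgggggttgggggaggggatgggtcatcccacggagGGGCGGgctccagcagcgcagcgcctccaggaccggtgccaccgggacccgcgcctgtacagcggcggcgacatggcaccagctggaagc
Gnmt: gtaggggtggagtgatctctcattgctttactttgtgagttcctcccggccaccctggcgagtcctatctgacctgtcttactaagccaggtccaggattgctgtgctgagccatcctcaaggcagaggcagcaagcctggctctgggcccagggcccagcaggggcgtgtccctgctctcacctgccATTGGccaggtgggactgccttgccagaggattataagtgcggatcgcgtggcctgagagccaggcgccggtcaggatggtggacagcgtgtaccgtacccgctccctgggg
Ahcy: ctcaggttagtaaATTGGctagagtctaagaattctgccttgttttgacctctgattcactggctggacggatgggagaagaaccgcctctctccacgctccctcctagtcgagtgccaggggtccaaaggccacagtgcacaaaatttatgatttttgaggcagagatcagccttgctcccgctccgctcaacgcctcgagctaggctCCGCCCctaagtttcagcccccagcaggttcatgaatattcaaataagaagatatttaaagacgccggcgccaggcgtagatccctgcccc
The Bhmt promoter held 2 CCAAT matches and the Bhmt2 promoter 2 GGGCGG matches, the Gnmt promoter 1 CCAAT match, and the Ahcy promoter 1 of each. The GC content was 48.0% for Bhmt and 73.7% for Bhmt2, against a median of 52.7% over all promoters. CCAAT is held by 37.4% and GGGCGG by 35.7% of the 32851 mouse promoters of this length, so that a match in a single promoter is common. TATAAA, which 13.6% of promoters hold, was in none of the 8 windows. The same was found for TGATGNAA (3.97% of promoters) and TGACNNNGC (12.4%). CACGTG (7.15%) was found in the Cbs promoter and TTCNNNGAA (8.30%) in 1 of the 2 Pemt promoters. These are matches of letters and show no binding.

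The libraries held between 18758863 and 35393069 counted reads, of which the 9 genes took 0.653% to 0.976%. Sirt6 checked the labels. Its mean normalized count (scaled by TMM, edgeR's trimmed mean method) was 72.6 ± 13.6 in male WT and 7461 ± 1467 in male SIRT6-tg, and 76.5 ± 41.1 in female WT and 802 ± 331 in female SIRT6-tg (SD, n = 7), with no overlap between genotypes in either sex. The transgene was thus read at a higher level in male than in female SIRT6-tg (log2 fold change 3.22, SE 0.25). The TMM factors were 1.06 to 1.17 in male WT and 0.821 to 0.993 in male SIRT6-tg, without overlap, so how the libraries are scaled bears on every comparison of the male groups.

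All 9 genes were abundant, ranking between the 95.7th and the 99.6th percentile of the genes tested in each group. Levels of different genes were compared per length, as CPM divided by the kilobases of exon (CPM/kb). Gnmt stood highest in every group, with 1468 CPM/kb in male WT, and Mat1a came next with 762. In both male groups the ranges of Gnmt and Mat1a did not overlap, whereas in both female groups they did. Cth and Pemt, each at 152 CPM/kb in male WT, formed a second tier whose ranges overlapped in all 4 groups. Bhmt (75.1), Ahcy (69.8), Bhmt2 (65.6) and Cbs (62 CPM/kb in male WT) followed, and the ranges of each neighbouring pair among them overlapped. Mthfd1 was lowest in every group, at 44.1 CPM/kb in male WT, and its range overlapped that of the gene next above it, except in male SIRT6-tg. The length used is that of all annotated exons merged, from 1206 bases for Gnmt to 7485 for Cbs. By mean normalized count in male WT, Cbs (12317) stood above Cth (11294) and Pemt (8514). The order thus depends in part on these lengths. The place of Ahcy in this order is uncertain for a further reason. Of its 50-base transcript windows, 68.7% also occur in the transcripts of Gm4737, Gm4913, Gm5638 or Gm9826, and only uniquely mapped reads were counted. For Bhmt 26.1% of windows were shared with other genes, for Bhmt2 6.32%, for Cbs 1.25% and for Pemt 0.0896%, while Mat1a, Gnmt, Cth and Mthfd1 shared none.

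The spread between libraries of a group differed among the genes. Bhmt had the largest coefficient of variation in 3 groups, from 23.3% in male WT to 36.9% in female SIRT6-tg, and in female WT it was Pemt, at 30.5%. The smallest were 9.70% for Cbs in male WT, 6.33% and 8.76% for Mthfd1 in male SIRT6-tg and female WT, and 6.69% for Mat1a in female SIRT6-tg. The plot of normalized counts by library shows these spreads.

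**Figure D1:**
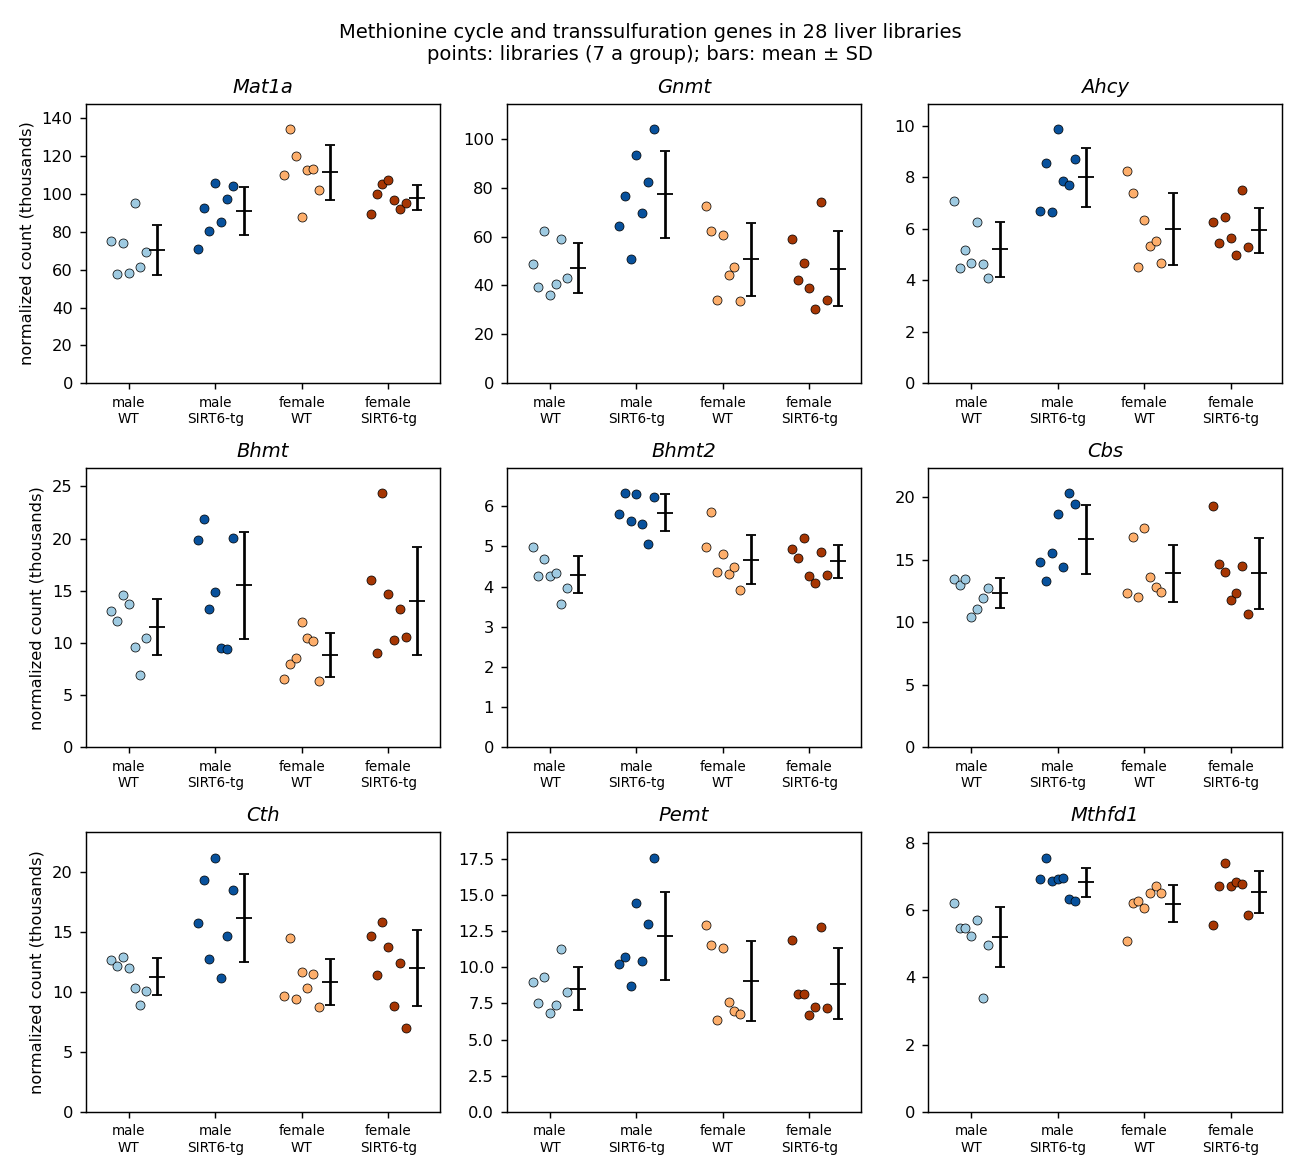
Normalized counts (TMM, on the scale written at the vertical axis) of the 9 genes, 1 point per library in each of the 4 groups of 7, with the group mean and SD beside the points. In males the SIRT6-tg points of Bhmt2 and Mthfd1 lie wholly above those of WT, and in females the groups overlap for every gene.

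In males, 8 of the 9 genes were higher in SIRT6-tg than in WT (adjusted p under 0.05, edgeR's quasi-likelihood test with Benjamini-Hochberg adjustment over all genes tested), against 9.68% of all genes called higher, and none was lower, where 2377 genes in all were. The increases ran from 29.5% for Mat1a to 64.4% for Gnmt, and Bhmt was the gene that did not pass. The median log2 fold change of the 9 genes was 0.44, beside 0.06 over all genes. Genes of like abundance also ran high. Among the 705 genes with a mean CPM at least that of Bhmt2, the lowest of the 9 at 182.9 CPM, the median was 0.34 and 47.7% were called higher, a background that was added after the data were examined. In whole liver, fewer cells of a type cannot be told apart from less RNA per cell.

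Gnmt, which disposes of excess methyl groups, had the largest difference. Its normalized count was 36044, 42900.1 and 62415 (lowest, median and highest) in male WT. In male SIRT6-tg the same 3 values were 50898, 76616 and 104006. Of the 7 SIRT6-tg libraries 6 lay above every WT library, and the difference was 64.4% (log2 fold change 0.72, SE 0.20, adjusted p = 0.00829). Ahcy, which removes S-adenosylhomocysteine, had 4093, 4677 and 7071 in male WT and 6651, 7849.6 and 9869 in male SIRT6-tg. The groups overlapped, with 5 SIRT6-tg libraries above all WT libraries and all 7 above the WT median (log2 fold change 0.62, SE 0.14, adjusted p = 0.00119). Reads at the Ahcy copies were few. Gm4737, the most read of them, had a median of 48.7 in male WT and 71.1 in male SIRT6-tg (log2 fold change 0.76, SE 0.27, adjusted p = 0.0449), and how many Ahcy reads were lost to multiple mapping was not tested. Ahcy was also among the genes that the study picked from these libraries for a display of amino acid metabolism, so its direction is not independent evidence. Both genes were called in all 28 fits that left out 1 library.

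Mat1a, the source of S-adenosylmethionine, differed less. Its normalized count was 57618.5, 69339.6 and 95461 in male WT and 70970.3, 92742 and 105684 in male SIRT6-tg. The ranges overlapped widely, male WT replicate 5 being above 4 of the SIRT6-tg libraries, and the difference was 29.5% (log2 fold change 0.37, SE 0.11, adjusted p = 0.0146). The call was lost without male WT replicate 2 (adjusted p = 0.0515) and without male WT replicate 4 (adjusted p = 0.0729). Pemt, the other large user of the methyl donor, had 6857, 8260.3 and 11259.8 in male WT and 8716, 10725 and 17596 in male SIRT6-tg. All SIRT6-tg libraries lay above the WT median but only 3 above the highest WT library (log2 fold change 0.51, SE 0.18, adjusted p = 0.0414). This was the least stable of the 8 calls. It was made in 15 of the 28 fits that left out 1 library, and the adjusted p reached 0.132 without male SIRT6-tg replicate 7. It was lost without any of the male WT replicates other than 6, without male SIRT6-tg replicates 4, 6 or 7, without female WT replicates 4 or 7 and without female SIRT6-tg replicates 3 or 7.

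The 2 genes that take homocysteine back to methionine had log2 fold changes of the same size in males but unlike errors. Bhmt2 had 3565, 4272 and 4975 in male WT and 5066, 5795 and 6317 in male SIRT6-tg, so that every SIRT6-tg library lay above every WT library. It had the smallest adjusted p of the 9 genes (log2 fold change 0.44, SE 0.09, adjusted p = 0.000468). Its neighbour Bhmt went from 6930.1, 12066 and 14570.3 in male WT to 9465, 14855 and 21876 in male SIRT6-tg. The SIRT6-tg libraries split, 4 lying above all WT libraries and 2, replicates 5 and 6, below the WT median, and the difference did not pass (log2 fold change 0.44, SE 0.22, adjusted p = 0.158). An antisense gene, Gm15622, shares 187 exon bases with Bhmt, the strand setting of the counting is not given in the sources used here, and its median of 37.3 normalized counts in male WT was small beside Bhmt. Mthfd1 had 3373, 5461 and 6220.3 in male WT and 6281, 6918 and 7561.5 in male SIRT6-tg. Its groups did not overlap either, and its lowest library was male WT replicate 6 (log2 fold change 0.39, SE 0.10, adjusted p = 0.00416). Such a separation, higher in SIRT6-tg, was found for 2 of the 9 genes and for 2.60% of all genes, and a separation in the other direction for none of the 9 and for 4.37% of all genes.

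Both transsulfuration genes were higher in male SIRT6-tg. Cbs had 10437, 12731.5 and 13501 in male WT and 13296, 15571 and 20315 in male SIRT6-tg. Of the 7 SIRT6-tg libraries 6 lay above every WT library, and the difference was 35.1% (log2 fold change 0.43, SE 0.12, adjusted p = 0.0103). Cth had 8952, 12009.8 and 12904 in male WT and 11147, 15778 and 21228 in male SIRT6-tg. Here 5 SIRT6-tg libraries lay above every WT library while replicate 5 lay below the WT median, and the difference was 43.6% (log2 fold change 0.52, SE 0.16, adjusted p = 0.0167). The Cth call was lost without male SIRT6-tg replicate 4 (adjusted p = 0.0573), and Cbs, Bhmt2 and Mthfd1 were called in all 28 fits.

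**Figure D2:**
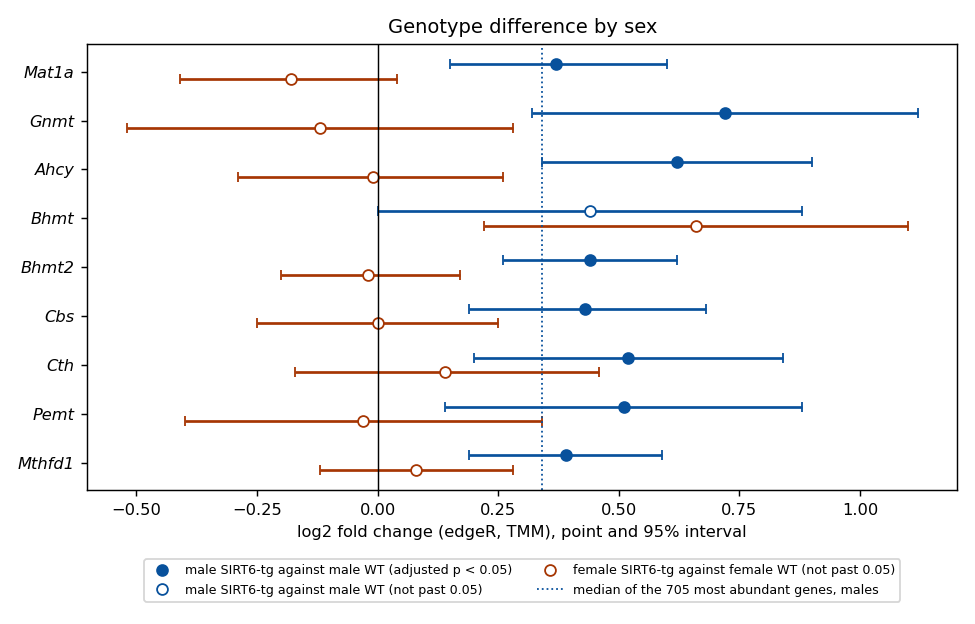
Log2 fold change of SIRT6-tg against WT with its 95% interval (edgeR, TMM) for each of the 9 genes, in males (blue) and females (brown), filled where adjusted p was under 0.05. The dotted line is the male median of the 705 abundant genes, 0.34, and the 8 filled points lie between 0.37 and 0.72, while no female point is filled.

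How many of the 9 genes were called in males depended on the scaling of the libraries. With DESeq2-type size factors (RLE) 7 were called, all but Bhmt and Pemt, beside 6.46% of all genes. With upper-quartile scaling 4 were called, Gnmt, Ahcy, Bhmt2 and Mthfd1 (4.36% of all genes). With library size alone only Ahcy was called (0.973% of all genes), and when the libraries were scaled on 15 genes of secreted hepatocyte proteins none was (0.588%). All 9 fold changes stayed positive under these 4 scalings, and their median fell to 0.16 with library size alone and to 0.10 with the hepatocyte genes. The median over all genes moved with them, to -0.22 and -0.27, and the 9 genes stayed 0.37 to 0.39 above it. A scaling shifts all genes of a library by nearly the same amount. This gap was thus nearly fixed in advance and is no test of the scaling. Fitting each sex separately lost Mat1a (adjusted p = 0.111) and Mthfd1 (adjusted p = 0.0689).

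**Figure D3:**
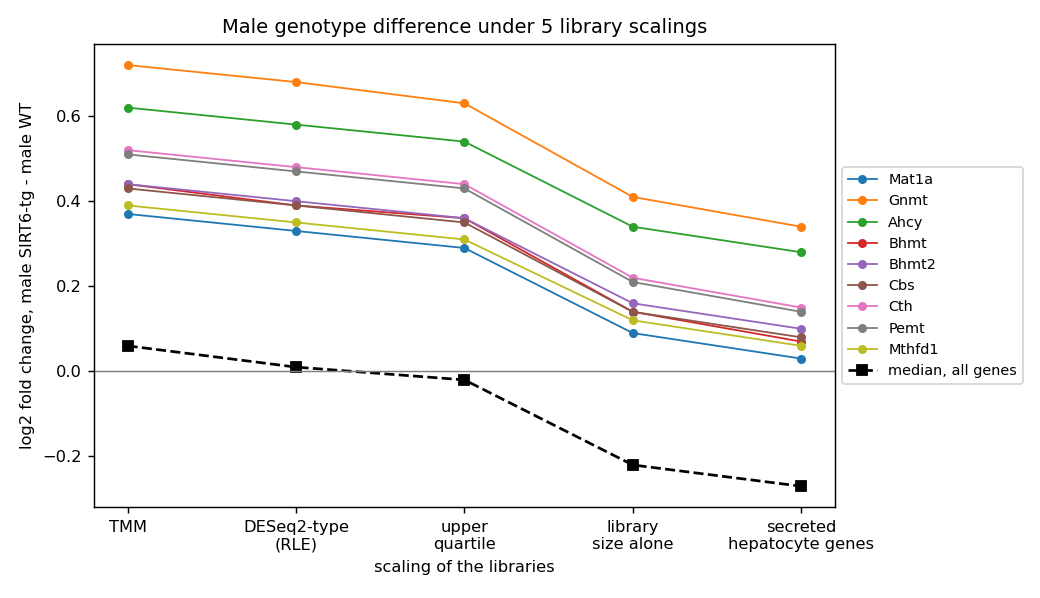
Male log2 fold changes (SIRT6-tg against WT) of the 9 genes under 5 scalings of the libraries, with the median over all genes tested as black squares. The 9 lines and the black line fall together, from a median of 0.44 against 0.06 with TMM to 0.10 against -0.27 with the secreted hepatocyte genes.

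Markers of other cells moved between the male groups too. All 8 Kupffer cell and macrophage markers were lower in male SIRT6-tg (median log2 fold change -1.20), their summed level running from 354 to 1183 CPM in male WT and from 305 to 512 in male SIRT6-tg. All 8 T cell markers were lower (median -2.38), with 15.8 to 48.9 CPM in male WT and 5.12 to 7.39 in male SIRT6-tg. Lower as well were 3 of 5 B cell markers and 5 of 7 markers of stellate cells and fibroblasts. None of the 6 markers of sinusoidal endothelium or the 5 of cholangiocytes passed, and 1 of 5 erythroid markers was higher. Of the pancreatic acinar markers 1 was higher and 1 lower of 5, and 1 of the 3 adipose markers tested was lower. Of the 15 secreted hepatocyte proteins 9 were higher and none lower (median 0.39), the sum running from 128600 to 166400 CPM in male WT and from 152500 to 208600 in male SIRT6-tg, as were 4 of 8 periportal markers. Among 8 pericentral markers 1 was higher and 1 lower. Beside these counts, 9.68% of all genes and 47.7% of the 705 abundant genes were called higher in male SIRT6-tg. The median log2 fold change of the abundant genes was 0.34. Of the 21583 genes tested, 2377 were called lower. Higher calls were thus common among abundant genes in general, and no marker list was tested against these shares. No marker of these lists other than an adipose one in females was at 0 in every library of a group. The part of these shifts in the values of the 9 genes was not tested.

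In females, none of the 9 genes was called by edgeR, where 0.0232% of all genes were called higher (5 genes) and 0.00463% lower (1 gene), and 1 of the 9 passed at an unadjusted p under 0.05. DESeq2 called none of them either. The groups overlapped for all 9 genes, and 0.0417% of all genes were separated in each direction. The median log2 fold change of the 9 genes was -0.01, beside 0.00 over all genes. Bhmt was the exception in size. It had 6362, 8536 and 12032 in female WT and 9092, 13288 and 24335 in female SIRT6-tg. All 7 SIRT6-tg libraries lay above the WT median and 4 above every WT library, the highest being replicate 3, but the difference of 58.3% did not pass (log2 fold change 0.66, SE 0.22, adjusted p = 0.464, unadjusted p = 0.00455). Over the fits that left out 1 library its log2 fold change stayed between 0.47, without female SIRT6-tg replicate 3, and 0.75, and it was called in none.

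For the other 8 genes the female log2 fold changes lay between -0.18 and 0.14. Mat1a had 88054, 112807 and 134377 in female WT and 89584, 96927.5 and 107514 in female SIRT6-tg, with every SIRT6-tg library below the WT median (log2 fold change -0.18, 95% interval -0.41 to 0.04). Gnmt ran from 33526 to 72690.0 in female WT and from 30232 to 73965 in female SIRT6-tg. Its interval, -0.52 to 0.28, was the widest of these 8, and did not reach the male estimate of 0.72. Ahcy ran from 4513 to 8223 in female WT and 4963 to 7504 in female SIRT6-tg, and Bhmt2 from 3927 to 5849 and 4084 to 5219. Cbs ran from 11998 to 17521 and 10665 to 19319, and Cth from 8756.5 to 14539.6 and 6957 to 15828. Pemt ran from 6326 to 12929.7 and 6682 to 12815, and Mthfd1 from 5069 to 6721 and 5542 to 7388. All of these ranges overlapped between the genotypes. The intervals of Ahcy (-0.29 to 0.26), Bhmt2 (-0.20 to 0.17), Cbs (-0.25 to 0.25), Pemt (-0.40 to 0.34) and Mthfd1 (-0.12 to 0.28) also ended below the male estimates of these genes. Only for Cth (-0.17 to 0.46) was the upper end close to the male value, 0.46 beside 0.52. Setting a female interval beside a male estimate leaves out the error of the male estimate, and is no test of a sex difference.

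The difference between the sexes was tested directly, as the genotype effect in males minus that in females. It passed for 3 of the 9 genes, Bhmt2 (0.46, SE 0.13, adjusted p = 0.0279), Mat1a (0.56, SE 0.16, adjusted p = 0.0306) and Ahcy (0.64, SE 0.19, adjusted p = 0.0486), where 1.20% of all genes and 9.50% of the 705 abundant genes were called higher and 3.84% of all genes lower. Gnmt had the largest difference and missed the threshold (0.84, SE 0.28, adjusted p = 0.0749). The differences for Pemt (0.54), Cbs (0.44), Cth (0.38) and Mthfd1 (0.31) did not pass, with adjusted p between 0.150 and 0.374. Bhmt was the gene with a difference in the other direction (-0.23, 95% interval -0.85 to 0.39, adjusted p = 0.753). The transgene itself was read at unlike levels in the sexes, 9.31-fold higher in male SIRT6-tg, and the part of that in these differences was not tested.

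These 3 calls were not stable. Under upper-quartile scaling, library size alone or the hepatocyte genes none of the 9 was called, and Bhmt2 was at -0.02 with the hepatocyte genes. With the replicate number as a block, or with no filter on low counts, 1 of the 9 was called. Bhmt2 was called in 22 of the 28 fits that left out 1 library and was lost without male WT replicates 4 or 7, male SIRT6-tg replicate 4, female WT replicate 2 and female SIRT6-tg replicates 4 or 7 (adjusted p at most 0.0581). Mat1a was called in 21 and was lost without male WT replicates 2 or 4, male SIRT6-tg replicates 4 or 7, female WT replicate 2 and female SIRT6-tg replicates 1 or 7 (adjusted p at most 0.0802). Ahcy was called in 8, those without male WT replicates 1 or 5, male SIRT6-tg replicates 1 or 3, female WT replicates 3, 6 or 7 and female SIRT6-tg replicate 6. Gnmt passed in 4 of these fits, those without male SIRT6-tg replicate 3, female WT replicates 3 or 7 and female SIRT6-tg replicate 6 (adjusted p = 0.0190).

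Without the transgene, Mat1a was the gene of the 9 that differed between the sexes, being 37.0% lower in male WT than in female WT (log2 fold change -0.67, SE 0.11, adjusted p = 9.02e-05). Of all genes, 5.71% were called lower in male WT and 6.66% higher, and of the 705 abundant genes 22.7% were called lower. Of the 7 male WT libraries 6 lay below every female WT library, the exception being replicate 5, and the call held in all 28 fits that left out 1 library. Mthfd1 was 16.0% lower, which did not pass (log2 fold change -0.25, SE 0.10, adjusted p = 0.0946), and the adjusted p of the other 7 genes lay between 0.294 and 0.867. This comparison too turned on the scaling. When scaled on the secreted hepatocyte genes, which were themselves lower in male WT for 6 of 15, Mat1a was no longer called (log2 fold change -0.16). Under that scaling 7 of the 9 were called higher in male WT, and the median of all genes moved to 0.52.

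With the transgene in both sexes, 4 of the 9 genes were higher in males than in females, where 12.9% of all genes and 30.6% of the abundant genes were called higher and 10.2% of all genes lower. They were Gnmt (log2 fold change 0.72, SE 0.20, adjusted p = 0.00758), Bhmt2 (log2 fold change 0.34, SE 0.09, adjusted p = 0.00638), Ahcy (log2 fold change 0.43, SE 0.14, adjusted p = 0.0216) and Cth (log2 fold change 0.44, SE 0.16, adjusted p = 0.0427). Mat1a, lower in male than in female WT, was at -0.11 here (adjusted p = 0.508). The male SIRT6-tg libraries are the same ones as in the comparison of genotypes, so these values are no separate evidence of it. Gnmt and Bhmt2 were called in all 28 fits that left out 1 library. Ahcy was lost without male SIRT6-tg replicate 4 (adjusted p = 0.0524) or female SIRT6-tg replicate 5 (adjusted p = 0.0504). Cth was called in 20 of the 28 and was lost without male WT replicate 4, male SIRT6-tg replicates 1, 2, 4 or 7 and female SIRT6-tg replicates 2, 5 or 7 (adjusted p at most 0.105). Pemt passed in 4 fits, without male SIRT6-tg replicate 3, female WT replicate 1 or female SIRT6-tg replicates 1 or 6, and Cbs passed without female SIRT6-tg replicate 1.

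The 9 genes did not vary as 1 unit from library to library. Over the 28 libraries, the deviations of log2 CPM from the group means had a median Pearson r of 0.36 over the 36 pairs, with 12 pairs above 0.5 and 4 below 0. Gnmt and Pemt, both methyltransferases, were the closest pair (r = 0.93, Spearman's rho 0.92), followed by Ahcy with Bhmt2 (0.74) and with Gnmt (0.73) and by Bhmt2 with Cth (0.71). Bhmt went with Cth (0.69) and Bhmt2 (0.53) and hardly with Gnmt (0.18) or Pemt (0.02). Mthfd1 ran against Pemt (-0.48) and Gnmt (-0.32), and the median r of Mat1a with the other genes was 0.21. These values are descriptive. The libraries share their depth, composition and scaling, and no p was computed.

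**Figure D4:**
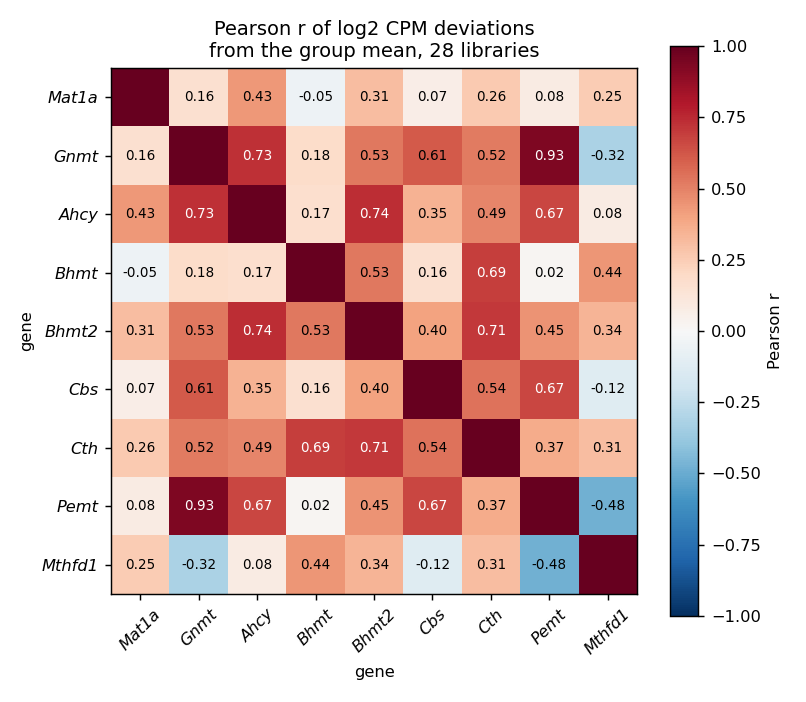
Pearson r between the 9 genes, both axes listing the genes and the colour giving r from -1 to 1, computed over 28 libraries from log2 CPM after each group's mean was taken off. Gnmt, Ahcy and Pemt go together with values of 0.67 to 0.93, and Pemt with Mthfd1 gives the lowest value, -0.48.

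Outside the 9 genes, those whose log2 CPM over the 28 libraries followed the mean of the 9 most closely, out of 14042 genes compared, were Gcdh (r = 0.94), Nipsnap1 (0.91), Haao (0.91), Hgd (0.91) and Slc27a5 (0.90). Gcdh encodes the mitochondrial glutaryl-CoA dehydrogenase of lysine and tryptophan breakdown, Haao an enzyme of tryptophan breakdown, Hgd an enzyme of tyrosine breakdown, and Slc27a5 a bile acid-CoA ligase. Within groups the r of these 5 genes was 0.79 to 0.90. Each of the 5 was higher in male SIRT6-tg, by 0.35 to 0.59 on the log2 scale, with female log2 fold changes of -0.10 to 0.07. They were picked for following the 9 genes over all libraries, group differences included, so that this direction was largely set by the choice.

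Around the 9 genes, 96 others of connected pathways were listed, and 95 were tested. In males 45 of them were higher in SIRT6-tg and 4 lower, with a median log2 fold change of 0.29, where 9.68% of all genes and 47.7% of the 705 abundant genes were called higher. The share of the pathway genes was close to that of the abundant genes, but the pathway genes were not limited to that abundance. Chac1, for instance, had a mean of 39.6 normalized counts in male WT, against 4296 for Bhmt2. The sets are therefore not matched, and none of the list counts that follow was tested against either share. In females edgeR called none, 9 had an unadjusted p under 0.05, and DESeq2 called Mthfd1l, lower, alone. The male count of higher genes fell to 30 without male WT replicate 4, to 27 with upper-quartile scaling and 26 when each sex was fitted separately, and to 3 with library size alone and 2 with the hepatocyte genes. In the test between the sexes 9 of the 95 were higher and 1 lower. There 1.20% of all genes and 9.50% of the 705 abundant genes were called higher, and 3.84% of all genes lower. How these calls change under other scalings is not described here. The genes named after this have the smallest adjusted p of each list in males, or passed in the test between the sexes. The plot of pathway lists gives the counts.

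**Figure D5:**
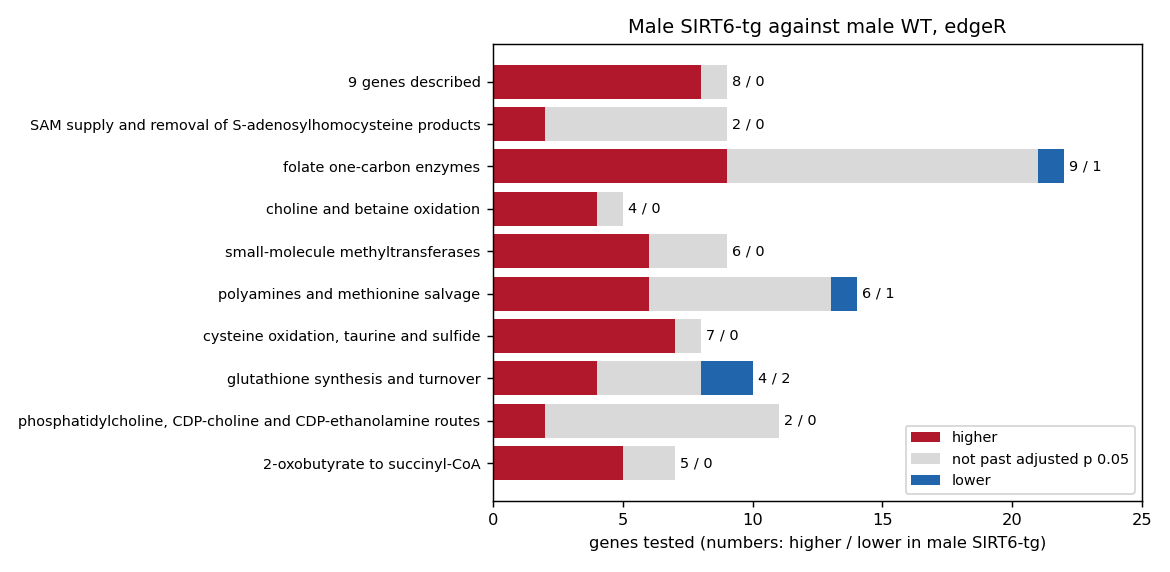
Numbers of genes tested in each list that were higher, lower or not past adjusted p 0.05 in male SIRT6-tg against male WT (edgeR), 1 bar per list. The bar of the 9 genes holds 8 higher, that of cysteine oxidation, taurine and sulfide 7 of 8, and that of phosphatidylcholine by the CDP routes 2 of 11.

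Downstream of Cbs and Cth, 7 of the 8 tested genes of cysteine oxidation, taurine and sulfide were higher in male SIRT6-tg and none lower (median log2 fold change 0.57, beside 0.06 over all genes and 0.34 over the abundant genes), Gadl1 having too few reads to be tested. Cdo1, which oxidizes cysteine to its sulfinic acid, had 26843, 32759 and 37233 in male WT and 41340.0, 45736 and 56599 in male SIRT6-tg (log2 fold change 0.49, SE 0.09, adjusted p = 0.000277). Suox, the sulfite oxidase, had 1479.8, 2486 and 2715 in male WT and 3213, 3407 and 3693 in male SIRT6-tg (log2 fold change 0.58, SE 0.11, adjusted p = 0.00029). Neither overlapped between the genotypes in males. Sqor and Ethe1, mitochondrial enzymes that oxidize hydrogen sulfide, were higher (0.56 and 0.79) and passed in the test between the sexes (0.66, adjusted p = 0.0409, and 1.13, adjusted p = 0.0403).

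Along the branch to glutathione, by contrast, 4 of 10 genes were higher and 2, Slc7a11 and Ggt1, were lower (median 0.14). Ggt1, the glutamyltransferase that starts the breakdown of extracellular glutathione, was named after its value was seen, like Gclm and Chac2, the other genes that were higher. Slc7a11 encodes a subunit of the transporter that brings cystine into the cell. It had 2.67, 8.6 and 24.8 normalized counts in male WT and 0, 0.996 and 2.21 in male SIRT6-tg. Few reads thus stand behind its call (adjusted p = 0.000138). Slc7a11 passed in the test between the sexes (adjusted p = 0.043). Oplah, the 5-oxoprolinase (log2 fold change 0.40, SE 0.10, adjusted p = 0.00283), and Chac1, a glutathione-degrading enzyme (log2 fold change 1.09, SE 0.27, adjusted p = 0.00402), were higher. Chac1 passed between the sexes (1.50, adjusted p = 0.0156). From the other product of Cth, 2-oxobutyrate, 5 of 7 genes of the route to succinyl-CoA were higher (Dbt, Pcca and Mcee being named after their values were seen), among them Pccb of propionyl-CoA carboxylase (0.36, SE 0.09) and Bckdha of the branched-chain dehydrogenase (0.41, SE 0.12).

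Among the folate one-carbon enzymes and the genes of choline and betaine oxidation, more were higher than lower in males. The lists were not limited to enzymes that supply methyl groups to homocysteine. Of 22 folate one-carbon enzymes 9 were higher. Shmt1 and Shmt2, the cytosolic and mitochondrial serine hydroxymethyltransferases, rose by 45.8% and 36.9% (log2 fold change 0.54, SE 0.10, adjusted p = 0.000235 and log2 fold change 0.45, SE 0.09, adjusted p = 0.000236). Shmt1 was one of the genes the study displayed from these libraries. Ftcd, which passes histidine carbon to folate, had 7636, 9474 and 11316 in male WT and 11339, 12815 and 15063 in male SIRT6-tg, without overlap, and passed between the sexes (0.65, adjusted p = 0.00565). Of the 5 genes of choline and betaine oxidation 4 were higher and none lower, Sardh being the 1 not described further. Chdh, named after its value was seen, did not pass (log2 fold change 0.19, adjusted p = 0.64). Pipox and Dmgdh, which break down sarcosine and dimethylglycine, the products of GNMT and BHMT, were higher without overlap in males (log2 fold change 0.38, SE 0.08, adjusted p = 0.000597 and log2 fold change 0.58, SE 0.12, adjusted p = 0.000906), and Aldh7a1, which makes betaine, passed between the sexes (0.45, adjusted p = 0.0305).

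Of the 9 genes around the supply and removal of the methyl donor, 2 were higher and none lower. Adk, the kinase that removes the adenosine released by AHCY, had 14866, 16261 and 19942 in male WT and 20045, 21552 and 25435 in male SIRT6-tg, without overlap (log2 fold change 0.42, SE 0.10, adjusted p = 0.00199). Mmachc, which processes the cobalamin of methionine synthase, was also higher (0.33, SE 0.08). Of 9 other methyltransferases 6 were higher. Inmt, an indolamine methyltransferase, had a log2 fold change of 0.82 (SE 0.21, adjusted p = 0.00428) and passed between the sexes (1.08, adjusted p = 0.0242), as did Tpmt, the thiopurine methyltransferase (0.51, adjusted p = 0.0375). In polyamine synthesis and methionine salvage 6 of 14 genes were higher and 1, Smox, named after its value was seen, was lower, with Paox, a polyamine oxidase (0.53), and Adi1, a salvage dioxygenase (0.38), leading. Of the 11 genes that make phosphatidylcholine and phosphatidylethanolamine by the routes other than Pemt, 2 were higher, Chpt1 (log2 fold change 0.52, SE 0.09, adjusted p = 0.000103) and Pcyt2 (log2 fold change 0.47, SE 0.09, adjusted p = 0.000457). Both also passed in the test between the sexes (0.47 and 0.48).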

How the data were processed

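Livers were flash frozen, and RNA was extracted with Trizol and made into NEBNext Ultra libraries, sequenced single-end. According to the study's methods and the submitters' processing notes, reads were aligned to mm10 with STAR 2.5.0a, and uniquely mapped reads were counted on Gencode genes with HTSeq; the strand setting is not given in the sources used here. The authors deposited raw counts, 1 column per library, and no normalization had been applied. All 28 columns were matched to samples by name. Symbols, coordinates and exon lengths came from Gencode vM21 (GRCm38).

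Genes with a mean of at least 0.5 counts after DESeq2 size factors were tested. Counts were scaled by TMM and tested with edgeR 4.0.16 (quasi-likelihood F-test, robust, all 28 libraries in 1 fit, no covariates, R 4.3.3), with Benjamini-Hochberg adjustment over the 21583 genes and a threshold of 0.05. Intervals are at the 95% level. The procedure was first tested on simulated counts. Normalized counts are TMM-scaled to the mean effective library, and CPM/kb divides by the length of the merged exons. DESeq2 1.42.0, other scalings and filters, the replicate block, separate fits of the sexes and leaving out each library were alternatives. According to the study each library was an individual mouse, and no 2 libraries of a group agreed within sampling noise (chi-square per gene at least 13.3).

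Between any 2 groups, at most 3 of 7 same-numbered pairs of libraries correlated above 0.1 in their deviations from the group means. Differently numbered pairs were not compared, so whether the shared replicate numbers pair the libraries was not tested.

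The 9 genes, the pathway and marker lists and the rule for named genes were chosen with earlier results of these data known. All 9 genes were named. From each of the 9 pathway lists the 2 genes with the smallest adjusted p in males were named, with any gene that passed in females or between the sexes, and the 5 genes most alike over the libraries. Exceptions are stated where they occur. The result of 1 listed gene is not reported here.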

Additional observations from a re-analysis of the deposited data

Results flagged for a closer look

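In female WT, the Mthfd1 count of replicate 1 was 5069.4, apart from the other 6 libraries, of which the nearest was 6073.1. It was the 1 outlying library found in 36 sets of 7 values, where chance alone gives about 1 in 20, and the gap made up 0.608 of the range.

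The genotype effect differed between males and females for 3 of the 9 genes by edgeR's test of the difference, with log2 differences of 0.56 for Mat1a (adjusted p = 0.0306), 0.64 for Ahcy (adjusted p = 0.0486) and 0.46 for Bhmt2 (adjusted p = 0.0279). These 3 differences were lost or weakened under other settings, as given below.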

How the results depend on the processing

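Each result was recomputed under 9 other settings, where they applied, and with each of the 28 libraries left out. Of 1638 alternative fold changes of the 9 genes, 1519 kept their side of the threshold without a called value changing sign (38 values that were not called did change sign), 101 lost the call, 12 gained one and 6 reversed. These values pool all comparisons. The main fit called 8 of the 9 genes in males, 0 in females, 3 between the sexes, 1 among WT and 4 among SIRT6-tg. A value that was not called cannot lose a call, so the count of kept values does not measure how stable the calls were. The cause of each change was not tested. The scaling mattered most. In males the 8 higher calls among the 9 genes became 4 with upper-quartile scaling, 1 with library size alone and 0 with the secreted hepatocyte genes, and the 2 genes without overlap became 0, 0 and 0. The 45 higher calls among the other pathway genes became 27, 3 and 2, and 26 with each sex fitted separately, and the 4 lower calls became 10 with library size alone and 11 with the hepatocyte genes. In females DESeq2 called 1 of the other pathway genes lower. Between the sexes the 3 calls became 0 with upper-quartile scaling, 0 with library size alone, 0 with the hepatocyte genes, 1 with no filter and 1 with the replicate block, and Bhmt2 was at -0.02 with the hepatocyte genes. In the WT comparison the hepatocyte genes gave 7 higher calls and 0 lower, with Gnmt at 0.44, Ahcy at 0.32, Bhmt2 at 0.41, Cbs at 0.35 and Pemt at 0.46, all of them below 0 with TMM. Among SIRT6-tg the 4 calls became 2 with upper-quartile scaling.

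Leaving out 1 library gave 6 to 8 higher calls among the 9 genes in males, 30 to 46 higher and 2 to 6 lower calls among the other pathway genes, 0 to 4 calls between the sexes and 2 to 6 among SIRT6-tg. The replicate block kept all 8 male calls. Correlations of same-numbered libraries lay between -0.345 and 0.328. Whether the numbers pair the libraries was not tested, and no label says what a shared number stands for. Bhmt2, the least read of the 9 genes, had a mean of 182.9 CPM, while Slc7a11 rested on few reads.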

Other observations

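Ratios of 2 genes of the pathway were computed within each library, so that a common scaling of the library drops out. The pairs were chosen after the values had been seen. The p-values computed for the ratios are therefore left out, and the ratios are a description. The log2 ratio of Cbs, which draws homocysteine into transsulfuration, to Bhmt, which returns it to methionine, was 0.29 ± 0.30 in female WT and -0.34 ± 0.47 in female SIRT6-tg (SD, n = 7), with 1 of 7 SIRT6-tg libraries above the WT median. It restates the female difference of Bhmt, which did not pass, since Cbs was at 0.00 there. In males the ratio was -0.25 ± 0.37 in WT and -0.22 ± 0.61 in SIRT6-tg. The log2 ratio of Gnmt to Mat1a was 0.94 ± 0.37 in male WT and 1.27 ± 0.20 in male SIRT6-tg, with 6 of 7 SIRT6-tg libraries above the WT median and overlapping ranges, 0.29 to 1.46 and 0.86 to 1.52. In females it was 0.35 ± 0.48 in WT and 0.39 ± 0.50 in SIRT6-tg.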
